A study of Mus musculus with 6 samples.

Results

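The 37 genes of the mouse mitochondrial genome were followed in liver RNA-seq counts. They were chosen as every row of the count table whose Ensembl gene ID carries a symbol that begins with mt-, which gave 13 mRNA, 2 rRNA and 22 tRNA genes out of 49671 gene IDs. The livers came from 6 male mice on a C57BL/6J background, all weaned to chow, moved to the AMLN diet (rich in fat, fructose and cholesterol) at 4 weeks of age and kept on it for 18 weeks until harvest at 22 weeks. The 3 mice labelled WT were read as SHMT2 fl/fl controls, which carry the floxed allele without Cre, and the 3 labelled KO as SHMT2 HKO mice, in which Albumin-Cre removes exons 3 to 12 of the floxed *Shmt2* gene. Albumin-Cre acts in hepatocytes, so the other cells of the liver keep the gene.

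Mitochondrial DNA encodes core subunits of respiratory complexes I, III, IV and V, together with the rRNAs and tRNAs that translate them, while nuclear genes supply every other subunit and the machinery that copies and reads the genome. Both strands are transcribed into long precursors, and the tRNAs that lie between the mRNAs and rRNAs are cut out to release them. SHMT2 is the mitochondrial enzyme that turns serine into glycine and loads folate with one-carbon units, some of which are used to modify mitochondrial tRNAs. The comparison of SHMT2 HKO with control livers asks which genes follow the loss of this enzyme in hepatocytes under the diet.

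In SHMT2 HKO livers the mitochondrial mRNAs were higher than in control livers as a share of gene counts, the rRNAs were not, and the 13 mRNAs all passed the test after TMM scaling, which sets libraries to a common level of most genes. None passed when libraries were scaled to the ERCC RNAs, synthetic transcripts added to each sample, although all 13 estimates stayed above 0. The well counted mRNAs rose between 1.70-fold (*mt-Co1*) and 2.16-fold (*mt-Nd4*) after TMM scaling.

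*Shmt2* was counted 3866, 2897 and 3600 times in control mice 1, 2 and 3, whereas SHMT2 HKO mice 1, 2 and 3 had 587, 558 and 491 counts. Its mean CPM (read counts relative to the TMM-scaled library size) in SHMT2 HKO livers was 24.4% of that in control livers (log2 fold change -2.04 ± 0.16 SE, adjusted p = 0.000639, edgeR quasi-likelihood test). All 10 hepatocyte markers were detected in the livers. Counts on genes ranged from 23090837 to 34089722 per library, ERCC RNAs held 1.35% to 2.75% of all counts, and TMM factors were 1.13 to 1.21 in controls and 0.802 to 0.984 in SHMT2 HKO libraries. Nothing in the labels says that the mice are from separate litters or batches, and p-values measure the spread between these mice.

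The members were not all counted equally well, and the sequences show where. Read pairs of 150 bases were assigned only where they hit 1 place, and a stretch of chromosome 1 (chr1:24611535-24616197, minus strand, GRCm38) holds 7 annotated pseudogenes that match mitochondrial positions 6390 to 11042. The first 90 bases of *mt-Co2*, the gene of a catalytic core subunit of complex IV, are shown because they are letter for letter those of its copy *Gm28661*. The window of *mt-Co1* and its copy *Gm29216* is shown for the single difference found over the 483 aligned positions, A1066T, counted from the first base of *mt-Co1* and given in capitals:
mt-Co2: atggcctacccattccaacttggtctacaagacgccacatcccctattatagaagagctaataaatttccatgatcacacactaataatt
Gm28661: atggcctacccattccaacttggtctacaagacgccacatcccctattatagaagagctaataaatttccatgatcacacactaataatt
mt-Co1: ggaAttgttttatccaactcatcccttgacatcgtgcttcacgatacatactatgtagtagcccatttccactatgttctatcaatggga
Gm29216: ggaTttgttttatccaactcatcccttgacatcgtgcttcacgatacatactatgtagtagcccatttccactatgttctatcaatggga

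These sequences were read from the GENCODE transcripts of GRCm38, the build of the counts. On chromosome 1, the copies of *mt-Co2*, *mt-Atp6*, *mt-Co3*, *mt-Nd3* and *mt-Nd4l* and of the first part of *mt-Nd4* had 0 differences over their aligned length. Of all windows of 150 bases in these genes, 99.4% of *mt-Co2*, 99.4% of *mt-Atp6*, 99.8% of *mt-Co3*, 97.0% of *mt-Nd3* and 98.0% of *mt-Nd4l* also occur in an annotated nuclear transcript. The share was 59.2% for *mt-Nd4* and 23.6% for *mt-Co1*, and 0% for the other mRNAs and both rRNAs. *mt-Atp8* matched no annotated copy, but it lies inside the copied stretch, where 233 bases between the copies of *mt-Atp6* and *mt-Co2* carry no annotated gene and were not examined here.

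The 6 mRNAs that lie wholly inside the copied stretch had 14 to 450 counts per mouse, while the 5 wholly outside it had 20516 to 284288. *mt-Co1* and *mt-Nd4*, which it covers in part, had 52978 to 461337. The 5 tRNA genes inside it (*mt-Ts1*, *mt-Td*, *mt-Tk*, *mt-Tg* and *mt-Tr*) had 0 to 29 counts, and the 17 outside it had 0 to 3922. Nuclear copies were counted at a similar low level: the 6 with most counts, 5 on chromosome 1 and *Gm13340*, a copy of *mt-Co1* on chromosome 2 with 37 differences, had 45 to 165 per mouse. The part of these shared sequences in the low counts was not tested, and levels of the 6 low mRNAs cannot be read against the others.

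**Figure D1:**
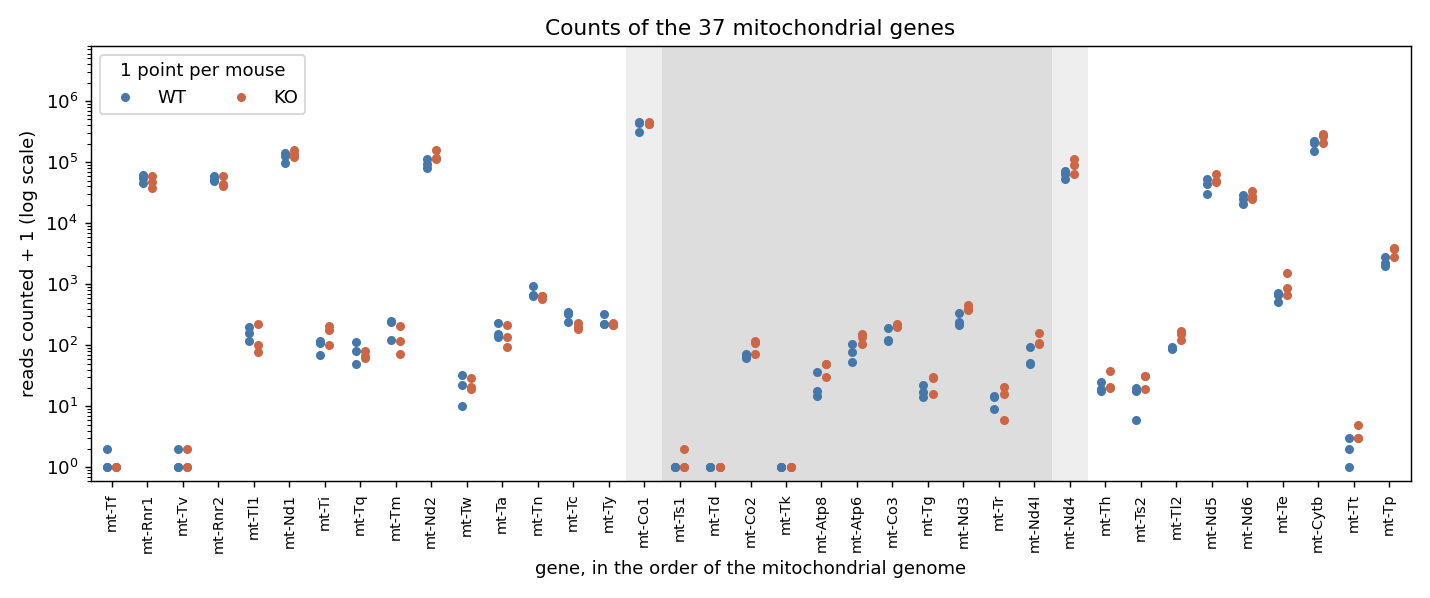
Reads counted per gene (log scale, 1 added) for the 37 mitochondrial genes in genome order, with 1 point per mouse for SHMT2 fl/fl (WT) and SHMT2 HKO (KO). Dark shading marks genes inside the stretch copied on chromosome 1 and light shading those partly inside: the 6 mRNAs in the dark band have 14 to 450 counts, against 20516 or more for the 7 other mRNAs.

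Neighbouring genes also overlap. The end of *mt-Atp8* and the start of *mt-Atp6*, both subunits of the ATP synthase (complex V), share 43 bases, and *mt-Nd4l* and *mt-Nd4*, both subunits of complex I, share 7. The overlaps are given in capitals within their surroundings, since reads across them belong to both genes:
mt-Atp8/mt-Atp6: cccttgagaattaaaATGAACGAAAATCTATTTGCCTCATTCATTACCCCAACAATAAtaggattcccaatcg
mt-Nd4l/mt-Nd4: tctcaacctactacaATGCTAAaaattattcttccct

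Per kilobase of gene, the level of mRNAs and rRNAs in control livers fell from *mt-Co1* (7355 ± 79.3 CPM per kb, SD, n = 3) over *mt-Cytb* (4782 ± 159), *mt-Nd1* (3594 ± 127) and *mt-Nd2* (2646 ± 296) to *mt-Rnr1* (1628 ± 157), *mt-Nd6* (1357 ± 126) and *mt-Nd4* (1313 ± 123). *mt-Rnr2* (988 ± 172) and *mt-Nd5* (653 ± 45.6) followed. Levels of *mt-Nd6* and *mt-Nd4* differed by less than their spread between mice. The copied stretch covers *mt-Nd4* and *mt-Co1* in part, and what this does to their level per kilobase was not tested. The rRNAs thus stood below the 4 highest mRNAs, and whether the libraries were selected for poly(A) tails or depleted of rRNA is not given in the sources used here.

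As raw counts, without any scaling between libraries, mitochondrial mRNAs held 3.20%, 3.19% and 2.92% of gene counts in control livers 1, 2 and 3 and 4.20%, 4.595% and 3.96% in SHMT2 HKO livers 1, 2 and 3. All 3 SHMT2 HKO livers lay above all 3 control livers, and the mean was 1.37 times as high. The rRNAs held 0.356%, 0.414% and 0.315% in controls and 0.407%, 0.353% and 0.314% in SHMT2 HKO mice, and here the groups overlapped, with means of 0.361% ± 0.050 and 0.358% ± 0.047 (SD, n = 3 each).

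The ratio of mRNA to rRNA counts does not depend on the nuclear genes or on the scaling. It was 8.99, 7.71 and 9.27 in controls and 10.3, 13.03 and 12.6 in SHMT2 HKO mice, with means of 8.66 ± 0.828 and 11.99 ± 1.47. Every SHMT2 HKO liver lay above every control liver. No p is given for this ratio or for the shares, since they are sums over members.

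Per 100 ERCC counts, there were 214, 171 and 203 mitochondrial mRNA counts in controls and 149, 194 and 291 in SHMT2 HKO mice. On this scale the SHMT2 HKO livers spread around the control livers, with mouse 1 below and mouse 3 above all of them. In bulk tissue, more cells of a type and more RNA per cell cannot be told apart, and a higher share of gene counts does not say which of these held.

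**Figure D2:**
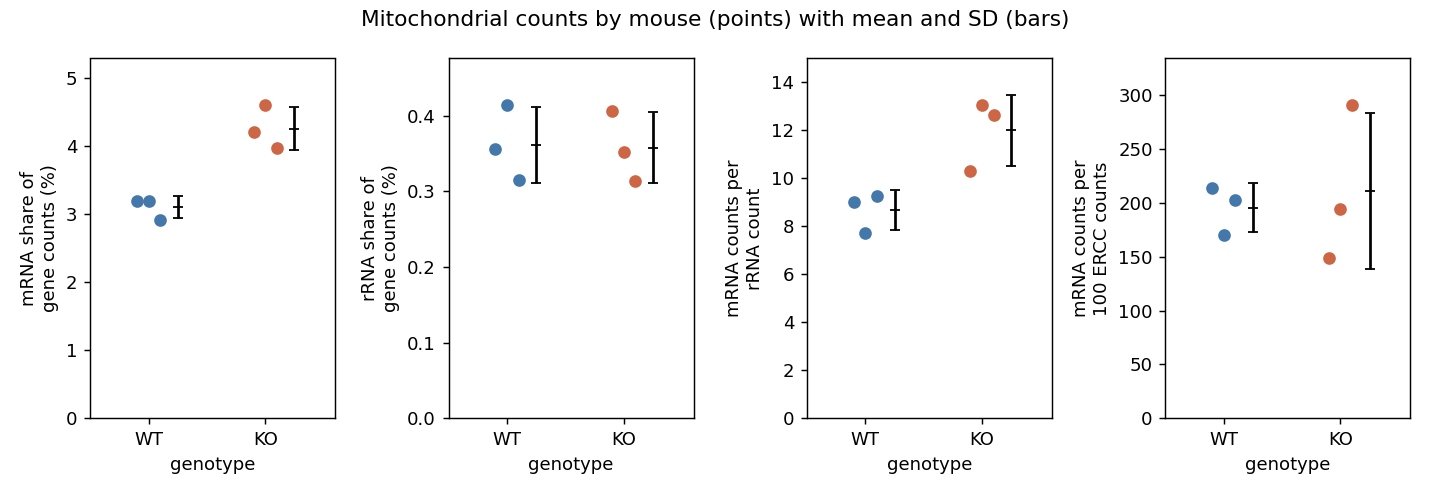
Mitochondrial mRNA and rRNA as a share of gene counts (%), mRNA counts per rRNA count, and mRNA counts per 100 ERCC counts, with 1 point per mouse and the mean ± SD beside each group (n = 3). The mRNA share and the mRNA to rRNA ratio are higher in all 3 SHMT2 HKO (KO) livers, whereas the rRNA share (0.361% and 0.358%) and the level per ERCC count overlap between genotypes.

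In the test of all genes, 31 of the 37 members had enough counts. After TMM scaling 17 of these 31 were higher in SHMT2 HKO livers at an adjusted p under 0.05 and 0 were lower (0 also at an unadjusted p under 0.05; limma-voom and DESeq2 likewise gave 17 and 0), while 12.5% of the 16089 genes tested were called higher. All 13 mRNAs, 0 of 2 rRNAs and 4 of the 16 tRNAs tested were called. In 22 of the 31 every SHMT2 HKO mouse lay above every control mouse, which was so for 21.9% of all genes. The median log2 fold change was 1.11 over the 13 mRNAs and 0.03 over all genes.

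The scaling sets the size of these differences. ERCC scaling moved the median of all genes by -0.72 (log2), and with it 0 of the 31 members were called. Over all genes, 0.665% were then called higher, and 2759 of 16089 were called lower. The 13 mRNAs then had log2 fold changes of 0.00 (*mt-Co1*) to 0.76 (*mt-Nd4l*), and the rRNAs changed sign to -0.39 and -0.36. With library size alone, 8 of the 13 mRNAs were called. Relative to the median gene, the mRNAs stood 0.73 to 1.56 higher after TMM, 0.72 to 1.53 with library size and 0.70 to 1.46 with ERCC scaling, while the rRNAs stood 0.39 to 0.43, 0.37 to 0.39 and 0.30 to 0.34 higher. A change of scaling applies 1 factor to all genes of a library, so genes shift together, though not equally. From TMM to ERCC scaling, *mt-Tl1* went from 0.38 to -0.13 and *mt-Rnr1* from 0.45 to -0.39. The likeness of these ranges therefore follows largely from the calculation and is no separate evidence. The folds given from here on are on the TMM scale, and they are relative to the common level of other genes.

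**Figure D3:**
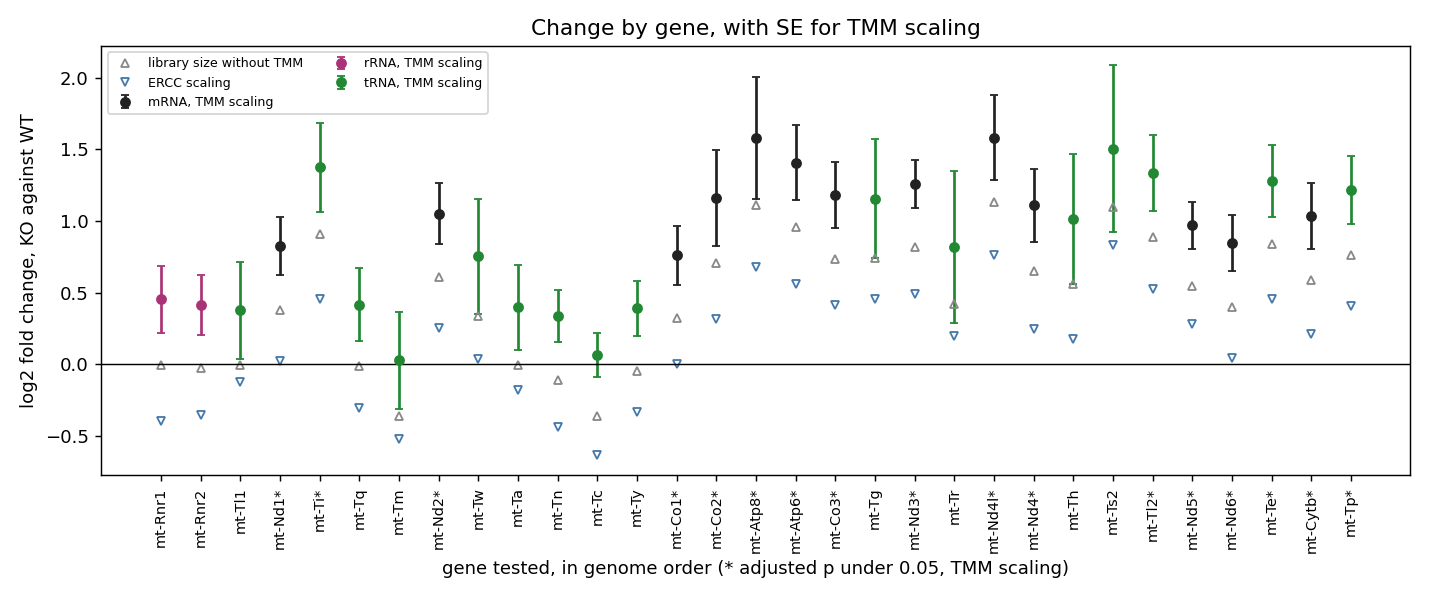
Log2 fold change of the 31 members tested, SHMT2 HKO (KO) against SHMT2 fl/fl (WT), in genome order. Filled points with bars are TMM-scaled estimates ± SE, triangles the same genes by library size or by ERCC scaling, and asterisks mark an adjusted p under 0.05 with TMM: all 13 mRNAs lie between 0.76 and 1.58 with TMM and between 0.00 and 0.76 with ERCC scaling, and both rRNAs fall below 0 with ERCC scaling.

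Complex I, which takes electrons from NADH, has 7 mitochondrial subunits, and all 7 were called higher on the TMM scale. *mt-Nd1*, a subunit of the membrane arm beside the quinone site, had 3404, 3575 and 3341 CPM in controls and 6691, 6846 and 4771 CPM in SHMT2 HKO mice 1, 2 and 3 (log2 fold change 0.83 ± 0.20 SE, adjusted p = 0.0194). *mt-Nd2* had 2730, 3062 and 2449 CPM and 6622, 5991 and 4474 CPM (1.05 ± 0.21, adjusted p = 0.00913). For both genes the groups did not overlap, and SHMT2 HKO mouse 3 was the nearest to the controls.

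*mt-Nd4*, a proton-pumping subunit, had 1776, 1993 and 1660 CPM in controls and 4708, 4462 and 2553 CPM in SHMT2 HKO mice (log2 fold change 1.11 ± 0.26 SE, adjusted p = 0.0148). *mt-Nd5*, another pump subunit, had 1286, 1131 and 1157 CPM and 2095, 2420 and 2486 CPM (0.97 ± 0.17, adjusted p = 0.00490). Here mouse 3 was the highest of the SHMT2 HKO livers and not the lowest, unlike the other well counted mRNAs. *mt-Nd6*, the only mRNA on the minus strand, had 700, 772 and 642 CPM and 1424, 1394 and 978 CPM (0.84 ± 0.19, adjusted p = 0.0147).

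The low *mt-Nd3*, in the hinge between the arms of complex I, had 8.32, 7.94 and 6.18 CPM in controls and 19.1, 19.0 and 15.6 CPM in SHMT2 HKO mice (log2 fold change 1.26 ± 0.17 SE, adjusted p = 0.00203, the smallest among the members). The other low subunit, *mt-Nd4l*, had 2.27, 1.88 and 1.28 CPM and 6.75, 5.32 and 4.25 CPM (1.58 ± 0.29, adjusted p = 0.00645). Both rest on few reads, 211 to 450 and 49 to 159 counts per mouse. The summed level of the 7 subunits was 9902 ± 644 CPM in controls and 19328 ± 3511 CPM in SHMT2 HKO livers (SD, n = 3).

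*mt-Cytb*, the cytochrome b of complex III, had 5353, 5680 and 5379 CPM in controls and 12066, 13421 and 8190 CPM in SHMT2 HKO mice (log2 fold change 1.04 ± 0.23 SE, adjusted p = 0.0132). The groups did not overlap. It is the single mitochondrial subunit of this complex, and after *mt-Co1* it had the most counts of any member.

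Complex IV, which reduces oxygen, has 3 mitochondrial subunits. *mt-Co1*, its catalytic subunit and the member with most counts, had 11286, 11505 and 11301 CPM in controls and 18177, 22760 and 16852 CPM in SHMT2 HKO mice. The difference was the smallest of the 13 mRNAs (log2 fold change 0.76 ± 0.21 SE, adjusted p = 0.0272), and with ERCC scaling it was 0.00 (adjusted p = 0.995). *mt-Co2* had 1.47, 2.60 and 1.83 CPM and 4.97, 5.42 and 2.76 CPM (1.16 ± 0.34, adjusted p = 0.0340), and *mt-Co3* 4.72, 4.59 and 3.001 CPM and 9.38, 10.6 and 7.95 CPM (1.18 ± 0.23, adjusted p = 0.00752). The groups did not overlap for any of the 3 genes, but the gap for *mt-Co2* was narrow, and this gene rests on 60 to 117 counts per mouse.

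Both mitochondrial subunits of complex V were among the low mRNAs. *mt-Atp6*, part of the proton channel, had 2.57, 1.99 and 2.04 CPM in controls and 6.49, 6.94 and 4.17 CPM in SHMT2 HKO mice (log2 fold change 1.41 ± 0.26 SE, adjusted p = 0.00645). *mt-Atp8* had 0.881, 0.527 and 0.444 CPM and 2.04, 2.43 and 1.14 CPM (1.58 ± 0.42, adjusted p = 0.0261), on 14 to 48 counts per mouse. The groups did not overlap for either gene.

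By count class, the 7 well counted mRNAs had a median log2 fold change of 0.97 (0.76 to 1.11), and the 6 low ones 1.33 (1.16 to 1.58). The ranges of the classes did not overlap. With ERCC scaling they were 0.00 to 0.28 and 0.32 to 0.76, an order that a shift of all genes together leaves in place. The 6 low mRNAs together held 0.0762%, 0.0704% and 0.0569% of mitochondrial mRNA counts in controls and 0.0940%, 0.0866% and 0.0890% in SHMT2 HKO mice. A larger fold in the subunits of complex V, both of which are low, can therefore not be told apart from this class.

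The calls at the adjusted threshold depended on which mice were included, while the estimates moved less. Of the 13 mRNAs, 5 (*mt-Nd3*, *mt-Nd4l*, *mt-Nd5*, *mt-Co3* and *mt-Atp6*) passed with any 1 of the 6 mice left out, and the other 8 lost the call at least once. The number of members called higher was 11 without control mouse 1, 8 without control mouse 3 and 11 without SHMT2 HKO mouse 2, against 17 with all mice, and no member turned lower at an adjusted p under 0.05. Over the 6 fits it ranged from 8 to 18, and the number over all genes from 805 to 2521, against 2012. All 13 mRNAs were higher at an unadjusted p under 0.05 (edgeR) in each of the 6 fits. The smallest estimate, that of *mt-Co1*, ranged from 0.63 to 0.83.

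Both rRNAs missed the threshold. *mt-Rnr1*, the RNA of the small ribosomal subunit, had 1510, 1722 and 1431 CPM in controls and 2545, 2380 and 1458 CPM in SHMT2 HKO mice (log2 fold change 0.45 ± 0.24 SE, adjusted p = 0.186). *mt-Rnr2*, the RNA of the large subunit, had 1445, 1874 and 1368 CPM and 2482, 2023 and 1734 CPM (0.41 ± 0.21, adjusted p = 0.176). For both genes SHMT2 HKO mouse 3 fell within the range of the controls. Without this mouse *mt-Rnr1* passed, with a log2 fold change of 0.64 (adjusted p = 0.0169), and *mt-Rnr2* did not. The counts of *mt-Rnr2* per count of *mt-Rnr1* were 0.956 to 1.09 in controls and 0.850 to 1.19 in SHMT2 HKO mice.

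The 22 tRNA genes are 59 to 75 bases long, so a read of full length runs past their ends. Together they held 0.490% ± 0.048 of mitochondrial counts in controls and 0.525% ± 0.010 in SHMT2 HKO livers (SD, n = 3). *mt-Tp*, for the proline tRNA, alone had 45.0% ± 4.27 and 54.0% ± 5.32 of tRNA counts, and *mt-Te* (glutamate) and *mt-Tn* (asparagine) came next. Their sequences are shown for these 3 most counted tRNA genes, in the sense of the tRNA and with the anticodon in capitals:
mt-Tp: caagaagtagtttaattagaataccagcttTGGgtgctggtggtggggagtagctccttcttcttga
mt-Te: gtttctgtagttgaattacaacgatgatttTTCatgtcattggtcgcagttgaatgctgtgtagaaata
mt-Tn: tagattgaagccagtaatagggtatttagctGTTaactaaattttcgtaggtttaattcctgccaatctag

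*mt-Tp* is the last annotated gene before the non-coding control region. It had 67.1, 82.4 and 51.5 CPM in controls and 166, 189 and 111 CPM in SHMT2 HKO mice (log2 fold change 1.22 ± 0.24 SE, adjusted p = 0.00757). *mt-Te*, between *mt-Nd6* and *mt-Cytb*, had 16.4, 19.0 and 19.0 CPM and 64.0, 33.2 and 34.7 CPM (1.28 ± 0.25, adjusted p = 0.00819), with SHMT2 HKO mouse 1 far above the others. The groups did not overlap for either gene.

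*mt-Ti* (isoleucine), next to *mt-Nd1*, had 2.89, 2.56 and 2.82 CPM in controls and 8.62, 8.91 and 4.01 CPM in SHMT2 HKO mice (log2 fold change 1.38 ± 0.31 SE, adjusted p = 0.0137). *mt-Tl2*, a leucine tRNA between *mt-Ts2* and *mt-Nd5*, had 2.18, 3.27 and 2.40 CPM and 7.26, 7.75 and 4.80 CPM (1.34 ± 0.27, adjusted p = 0.00830). Of the 4 tRNAs called, *mt-Ti* lost the call when a single mouse was left out, and none passed with ERCC scaling.

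The other 12 tRNAs tested had log2 fold changes of 0.03 (*mt-Tm*) to 1.505 (*mt-Ts2*) and did not pass. *mt-Tn*, with 563 to 926 counts per mouse, had 22.7, 24.3 and 17.2 CPM in controls and 26.7, 32.1 and 22.2 CPM in SHMT2 HKO mice (0.34 ± 0.18, adjusted p = 0.200), and the groups overlapped. *mt-Ta* (0.40), *mt-Tc* (0.06) and *mt-Ty* (0.39), for alanine, cysteine and tyrosine, which lie with *mt-Tn* in a cluster on the minus strand, gave adjusted p-values of 0.348, 0.788 and 0.166. *mt-Tl1* (leucine, 0.38), *mt-Tq* (glutamine, 0.42) and *mt-Tm* (methionine), which flank *mt-Nd1* and *mt-Nd2*, gave 0.440, 0.258 and 0.961. All of these 7 had negative estimates with library size and with ERCC scaling.

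*mt-Tw* (tryptophan, 0.75), *mt-Tg* (glycine, 1.16), *mt-Tr* (arginine, 0.82), *mt-Th* (histidine, 1.01) and *mt-Ts2* (serine) had 5 to 37 counts per mouse and adjusted p-values of 0.0692 to 0.280. The 6 tRNA genes that were not tested had 0 to 4 counts per mouse. *mt-Td* and *mt-Tk*, for aspartate and lysine, had 0 counts in all 6 mice, which allows up to 3 counts per library.

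By strand, 28 members lie on the plus strand and 9 on the minus strand, which carries *mt-Nd6* and 8 tRNA genes. Of the members tested, 14 of 23 on the plus strand and 3 of 8 on the minus strand were called higher on the TMM scale, where 12.5% of all genes were. The median log2 fold changes were 1.05 and 0.41. The minus-strand members are tRNAs except for *mt-Nd6*, so strand and kind of RNA were also compared within a kind. *mt-Nd6* amounted to 2.71, 2.86 and 2.54 counts per 100 plus-strand mRNA counts in controls and 2.83, 2.49 and 2.48 in SHMT2 HKO mice, and the groups overlapped. *mt-Co1*, with the smallest rise of the mRNAs, is the largest part of these plus-strand counts. The ratio without *mt-Co1* was not computed, so this overlap does not show that *mt-Nd6* kept pace with the other plus-strand mRNAs. Per 100 *mt-Cytb* counts, *mt-Nd6* had 12.9 ± 0.848 in controls and 11.4 ± 0.863 in SHMT2 HKO mice (SD, n = 3). Per 100 *mt-Nd5* counts, it had 59.4 ± 7.70 and 55.0 ± 14.5, and the groups overlapped on both scales. Among tRNAs tested, 2 of 9 on the plus and 2 of 7 on the minus strand were called, too few to set apart from the 12.5% of all genes. Their median log2 fold changes were 1.01 and 0.40, and the difference between the strands was not tested. Minus-strand tRNA counts per 100 plus-strand tRNA counts were 590 to 870 in controls and 638 to 1097 in SHMT2 HKO mice. Whether counting used the strand is not given in the sources used here, so reads of a minus-strand gene cannot be told apart from those of the plus-strand transcript that covers it.

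As shares of all mitochondrial mRNA counts, which are free of the scaling, each of the 7 well counted mRNAs overlapped between the genotypes. These shares are parts of the same total, with *mt-Co1* as its largest part, so a change in *mt-Co1* shifts all the others. Overlap with *mt-Co1* left out of the total was not examined, so the overlap is shown only for a total that includes this gene. *mt-Co1* held 42.5%, 41.5% and 43.6% of mitochondrial mRNA counts in controls and 35.1%, 39.7% and 41.8% in SHMT2 HKO mice. *mt-Cytb* held 20.2%, 20.5% and 20.7% and 23.3%, 23.4% and 20.3%. In both, SHMT2 HKO mouse 3 lay within the range of the controls and the groups overlapped. *mt-Nd2* (10.3% ± 0.800 and 11.4% ± 1.202), *mt-Nd4* (6.76% ± 0.398 and 7.73% ± 1.38), *mt-Nd5* (4.46% ± 0.383 and 4.81% ± 1.18) and *mt-Nd6* (2.63% ± 0.154 and 2.53% ± 0.185) overlapped as well (SD, n = 3). *mt-Nd1* held 12.8%, 12.9% and 12.9% in controls and 12.9%, 11.9% and 11.8% in SHMT2 HKO mice, with mice 2 and 3 of the latter below all controls and mouse 1 not. Among the low mRNAs, the shares of *mt-Nd4l* (1.62 times the control mean), *mt-Atp6* (1.42), *mt-Nd3* (1.30) and *mt-Co3* (1.23) were higher in every SHMT2 HKO mouse, while those of *mt-Atp8* (1.59) and *mt-Co2* (1.18) overlapped.

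**Figure D4:**
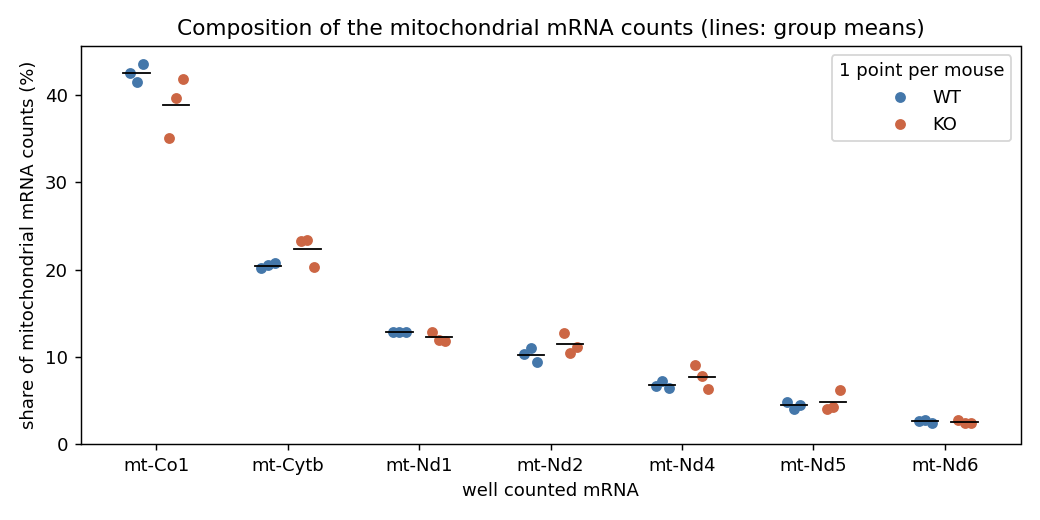
Share of mitochondrial mRNA counts (%) for the 7 well counted mRNAs, with 1 point per mouse for SHMT2 fl/fl (WT) and SHMT2 HKO (KO) and lines at the group means. The order of the group means is the same in both genotypes, from *mt-Co1* (42.5% and 38.8%) to *mt-Nd6* (2.63% and 2.53%). The groups overlap for every gene as a share of this total, which includes *mt-Co1*.

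Some nuclear subunits of the same complexes rose as well after TMM scaling. Of 45 nuclear subunits tested over complexes I to V, 21 were called higher and 0 lower, where 12.5% of all genes were called higher and 16.5% lower, with log2 fold changes of 0.34 to 0.90 over all 45 (median 0.58), but with ERCC scaling 43 of the 45 estimates were negative (median -0.24). The median of the mitochondrial subunits of complex I was 1.05 against 0.58 for 7 nuclear core subunits, of which 5 were called. It was 1.04 against 0.49 for complex III (4 of 9 nuclear subunits called), 1.16 against 0.60 for complex IV (4 of 11) and 1.49 against 0.58 for complex V (6 of 14). Complex II, all of whose subunits are nuclear, had a median of 0.64 (2 of 4 called). The difference between the genomes was not tested.

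Among the nuclear subunits called, those with the largest rises per complex were *Ndufs8* (0.75, adjusted p = 0.0294) and *Ndufs7* (0.65, adjusted p = 0.0336) of complex I, *Sdha* (0.71, adjusted p = 0.0113) and *Sdhd* (0.64, adjusted p = 0.0276) of complex II, *Uqcrq* (0.90, adjusted p = 0.0391) and *Uqcr11* (0.88, adjusted p = 0.0420) of complex III, *Cox7b* (0.80, adjusted p = 0.0405) and *Cox6c* (0.77, adjusted p = 0.0388) of complex IV, and *Atp5h* (0.70, adjusted p = 0.0388) and *Atp5f1* (0.60, adjusted p = 0.0185) of complex V. *Atp5k* of complex V had a larger estimate (0.78) but did not pass (adjusted p = 0.0529). With ERCC scaling all 10 called genes lay between -0.18 and 0.00, and 9 of the 10, all but *Sdha*, lost the call in 4 or 5 of the 6 fits that left out a mouse.

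**Figure D5:**
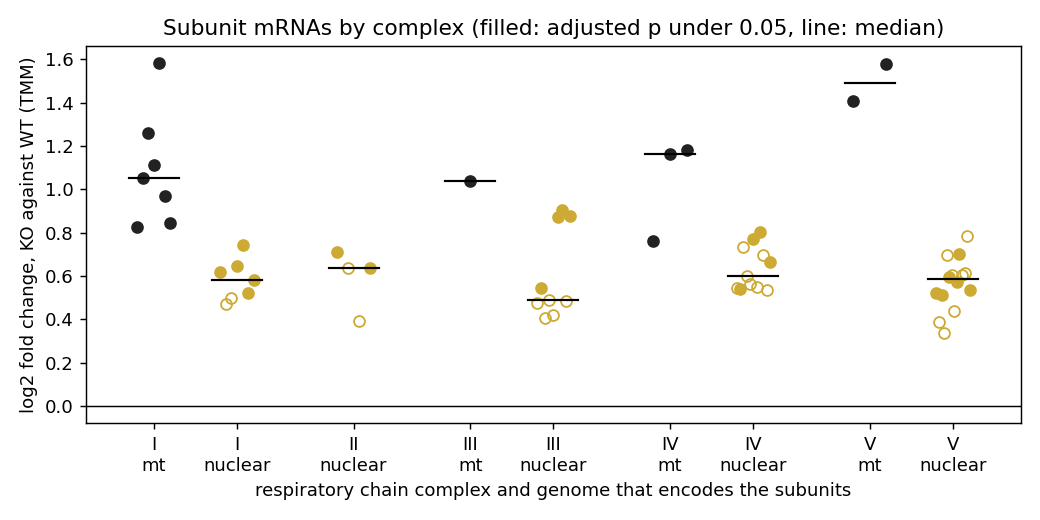
Log2 fold change (SHMT2 HKO against SHMT2 fl/fl, TMM scaling) of mitochondrial (mt) and nuclear subunit mRNAs of each respiratory complex, with 1 point per gene, filled at an adjusted p under 0.05, and a line at the median. The medians are 1.04 to 1.49 for mitochondrial and 0.49 to 0.64 for nuclear subunits, while 43 of the 45 nuclear estimates are below 0 with ERCC scaling.

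Of the machinery that reads the mitochondrial genome, 2 of 11 transcription genes were called higher and 0 lower (median 0.35), a share near the 12.5% of all genes called higher. *Tfam*, which packages mitochondrial DNA and starts transcription, had a log2 fold change of 0.42 ± 0.11 (SE, adjusted p = 0.0212), and *Tfb2m*, which opens the promoter, 0.55 ± 0.14 (adjusted p = 0.0217), though both were negative with ERCC scaling (-0.32 and -0.12) and each lost its call in 4 of the 6 fits that left out a mouse. *Polrmt*, the mitochondrial RNA polymerase, had 28.5 CPM in controls and 30.5 CPM in SHMT2 HKO livers (0.10, adjusted p = 0.529), and *Tefm*, its elongation factor, had 0.38 (adjusted p = 0.0926).

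Among 14 genes of RNA stability and polyadenylation, 5 were called higher and 0 lower (median 0.33), against 12.5% and 16.5% of all genes. *Lrpprc*, which keeps mitochondrial mRNAs stable, had 0.58 (adjusted p = 0.00826), and *Rexo2*, which degrades short RNAs in mitochondria, had 0.59 (adjusted p = 0.00752), both -0.14 with ERCC scaling. *Slirp*, the partner of *Lrpprc*, had 0.51 and did not pass (adjusted p = 0.136). Of 8 genes that cut precursors and process tRNA ends, 1 was called, near the share over all genes: *Hsd17b10*, a subunit of mitochondrial RNase P and an enzyme of isoleucine breakdown (1.33, adjusted p = 0.0149, and 0.42 with ERCC scaling). *Hsd17b10* lost its call in 2 of the 6 fits that left out a mouse.

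Of 22 genes that modify bases of mitochondrial rRNAs and tRNAs, 1 was called higher and 1 lower (median 0.08), shares below the 12.5% and 16.5% of all genes. The members called work together: the proteins of *Gtpbp3* and *Mto1* form the enzyme that modifies the wobble uridine of several mitochondrial tRNAs with a one-carbon unit from folate. *Gtpbp3* had 18.1, 16.9 and 17.7 CPM in controls and 12.9, 12.3 and 12.8 CPM in SHMT2 HKO mice (log2 fold change -0.48 ± 0.12 SE, adjusted p = 0.0200), and *Mto1* had 12.5, 14.0 and 14.4 CPM and 19.9, 19.1 and 18.7 CPM (0.49 ± 0.12, adjusted p = 0.0192). The groups did not overlap for either gene, but *Mto1* turned negative with ERCC scaling (-0.23), where *Gtpbp3* was at -1.19. Each lost its call in 4 of the 6 fits that left out a mouse.

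Of 18 genes of mitochondrial DNA replication and upkeep, 5 were called higher and 1 lower. *Tymp*, which breaks down thymidine, had 1.01 (adjusted p = 0.00661, 0.30 with ERCC scaling), and *Sucla2*, a subunit of succinyl-CoA synthetase, had 0.71 (adjusted p = 0.00859, -0.07 with ERCC scaling). *Slc25a36*, a carrier of pyrimidine nucleotides, had -1.38 (adjusted p = 0.00285, -1.99 with ERCC scaling). Of 12 regulators of biogenesis, 4 were called higher and 0 lower. *Ppara*, the nuclear receptor for fatty acids, had 1.10 (adjusted p = 0.00369, 0.44 with ERCC scaling). The receptor gene *Esrrg* had 3.78 (adjusted p = 0.0247, 2.76 with ERCC scaling) on 16, 1 and 0 counts in controls and 66, 58 and 20 in SHMT2 HKO mice. *Esrrg* lost its call in 3 of the 6 fits that left out a mouse. *Ppargc1a*, the coactivator that drives biogenesis, had -0.26 (adjusted p = 0.500). Of 15 markers of mitochondrial content, 7 were called higher, led by the chaperonin genes *Hspe1* (0.78, adjusted p = 0.0182) and *Hspd1* (0.67, adjusted p = 0.0121), both negative with ERCC scaling. *Hspe1* lost its call in 3 and *Hspd1* in 2 of the 6 fits that left out a mouse. Over these 12 lists, 45 of 144 genes were called higher and 2 lower, beside 12.5% and 16.5% of all genes. The 45 became 9, 13 and 7 without control mouse 1, 2 or 3, 13 without SHMT2 HKO mouse 2 and 81 without SHMT2 HKO mouse 3.

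Among the nuclear copies, 5 of the 6 with most counts were called higher on the TMM scale, where 12.5% of all genes were: *Gm10925* (1.08, adjusted p = 0.0145), *Gm28661* (0.73, adjusted p = 0.0466), *Gm28437* (0.97, adjusted p = 0.0479), *Gm29216* (1.05, adjusted p = 0.0497) and *Gm13340* (0.998, adjusted p = 0.0201), of which *Gm28661* turned negative with ERCC scaling (-0.02). These calls were lost in 2 (*Gm10925*), 4 (*Gm28661* and *Gm13340*) or 5 (*Gm28437* and *Gm29216*) of the 6 fits that left out a mouse. *Gm28439*, the copy of *mt-Nd4*, had 0.73 (adjusted p = 0.149). Counts on all nuclear copies per 10000 mitochondrial mRNA counts were 5.91, 6.36 and 5.24 in controls and 5.72, 6.73 and 5.64 in SHMT2 HKO mice, and these overlapped. Whether these reads came from the copies or from mitochondrial RNA was not tested.

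Markers of cell types moved with the genotype as well. The summed level of 10 hepatocyte markers was 59909 to 74290 CPM in controls and 77229 to 116504 CPM in SHMT2 HKO livers (3 of 10 called higher, 0 lower, where 12.5% and 16.5% of all genes were called). That of 5 biliary markers was 951 to 1181 and 128 to 245 CPM (5 of 5 lower), that of 7 stellate cell and fibroblast markers 1433 to 1485 and 322 to 850 CPM (5 of 7 lower), that of 6 lymphocyte markers 35.4 to 52.3 and 13.3 to 22.4 CPM (4 of 6 lower), and that of 7 macrophage markers 533 to 739 and 421 to 514 CPM (3 of 7 lower, 1 higher). Endothelial markers (172 ± 12.6 and 252 ± 21.5 CPM, 2 of 6 higher) and red blood cell markers (155 ± 46.8 and 232 ± 12.97 CPM, 1 of 5 higher) went the other way. These directions are on the TMM scale. With ERCC scaling 9 of the 10 hepatocyte markers had negative estimates, and the median log2 fold changes turned from 0.66 to -0.15 for hepatocyte, from 0.48 to -0.21 for endothelial and from 0.40 to -0.30 for red blood cell markers, while the other 4 lists stayed negative. No marker was at 0 in all mice. The mean of the hepatocyte sum was 1.56 times as high in SHMT2 HKO livers and that of the mitochondrial mRNA sum 1.86 times, and the part of the cell makeup in the mitochondrial result was not tested.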

How the data were processed

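Liver RNA of 6 mice was sequenced as read pairs of 150 bases. The deposited values are raw counts per gene: the authors trimmed reads (Trimmomatic 0.36), mapped them with STAR 2.5.2b to GRCm38 plus ERCC sequences and counted unique gene hits (Subread 1.5.2, in the submitters' processing notes). Strand use and the treatment of reads over several genes are not given in the sources used here.

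ERCC rows were left out of library sizes. Genes were filtered (filterByExpr), TMM-scaled and tested with edgeR 4.0.16 (quasi-likelihood, robust, two-sided, R 4.3.3), and p-values were adjusted by Benjamini-Hochberg over 16089 genes. The summaries by share, complex and strand have no test. DESeq2 1.42.0, limma-voom (limma 3.58.1), other scalings and filters, a replicate block and leaving out each mouse were tried. Sequence sharing was computed from GENCODE transcripts of GRCm38. On simulated counts, 159 of 200 genes changed 4-fold were recovered (79.5%), with 4 false calls among 15666 genes. This change was larger than that of any member, and fewer genes changed than were called in the data. These rates therefore do not carry over to the members.

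Depth was 23090837 to 34089722 gene counts per mouse. Errors given as SD are the spread over 3 mice a group. The SE of a log2 fold change was derived from the F statistic of the edgeR quasi-likelihood test. The members and lists were chosen with earlier results of these data known. Named are all mRNAs and rRNAs, tRNAs with at least 10 counts in 3 mice, 7 regulators whatever their values, the called genes with the 2 largest rises and falls in each nuclear list, and the 6 nuclear copies with most counts. The symbols *Fastkd4* and *Atp5o* were not matched.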

Additional observations from a re-analysis of the deposited data

How the results depend on the processing

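Over the 17 alternatives, all 13 mRNAs kept a positive estimate and 0 members were called lower. With ERCC scaling 0 members and with library size 12 members were called higher, against 17. What these limits share is a small design: 3 mice a group, 6 mRNAs and most tRNAs at low counts, and a scaling to nuclear genes or to spike-ins whose added amount per mouse could not be checked. The cause of the changes below was not tested.

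With library size alone, 539 genes were called higher and 4923 lower over all genes, and 4 and 9 in the nuclear lists. The log2 ratios of summed levels were then 0.52 (complex I), 0.59 (complex III), 0.33 (complex IV), 0.997 (complex V), 0.51 (tRNA) and -0.014 (rRNA). Estimates that turned negative were *mt-Rnr1* -0.0016, *mt-Rnr2* -0.026, *mt-Tl1* -0.0022, *mt-Tq* -0.0082, *mt-Tm* -0.36, *mt-Ta* -0.0019, *mt-Tn* -0.11, *mt-Tc* -0.36, *mt-Ty* -0.044, *Tfam* -0.010, *Polrmt* -0.33 and *Tefm* -0.055.

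With ERCC scaling, 107 genes were called higher and 2759 lower over all genes, and 1 in each direction in the nuclear lists. The log2 ratios were 0.17 (complex I), 0.21 (complex III), 0.0038 (complex IV), 0.59 (complex V), 0.17 (tRNA), -0.37 (rRNA) and 0.067 (all members per ERCC count, against 0.41 as a share of gene counts). Estimates that turned negative were *mt-Rnr1* -0.39, *mt-Rnr2* -0.36, *mt-Tl1* -0.13, *mt-Tq* -0.30, *mt-Tm* -0.52, *mt-Ta* -0.18, *mt-Tn* -0.44, *mt-Tc* -0.63, *mt-Ty* -0.34, *Tfb2m* -0.12, *Tfam* -0.32, *Sucla2* -0.072, *Rexo2* -0.14, *Lrpprc* -0.14, *Mto1* -0.23, *Ndufs8* -0.11, *Ndufs7* -0.18, *Uqcr11* -0.024, *Cox7b* -0.085, *Cox6c* -0.099, *Atp5h* -0.16, *Atp5f1* -0.18, *Sdha* -0.012, *Sdhd* -0.15, *Hspe1* -0.026, *Hspd1* -0.061, *Polrmt* -0.62, *Tefm* -0.38, *Slirp* -0.37 and *Gm28661* -0.022.

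*mt-Tm* was also negative with limma-voom (-0.085), upper-quartile scaling (-0.064), at least 10 counts in every sample (-0.015) and the replicate block (-0.056), and *mt-Tc* with upper-quartile scaling (-0.026). In the nuclear lists, DESeq2 called 71 genes higher and upper-quartile scaling 26. Without *mt-Co1* in the total, the log2 ratios of the shares of *mt-Nd1* and *mt-Cytb* were -0.16 and 0.037.

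Leaving out 1 mouse gave 805 to 2521 genes higher and 1621 to 3076 lower over all genes, 8 to 18 members higher, and 7 to 81 nuclear list genes higher and 1 to 2 lower. The estimates ranged from -0.11 to 0.66 for *mt-Tl1*, from -0.36 to 0.33 for *mt-Tm* and from -0.012 to 0.15 for *mt-Tc*.

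Replicate numbers did not mark pairs: deviations of same-numbered mice correlated at -0.046, 0.013 and -0.077, and 1 of 3 SHMT2 fl/fl mice correlated best with its own number. With the replicate block 1397 genes were called higher and 2187 lower over all genes, 15 members were called higher, *mt-Co1* and *mt-Nd1* missed the threshold (adjusted p = 0.101 and 0.0615), the nuclear copies *Gm28661*, *Gm28437* and *Gm29216* also missed it, and the nuclear lists had 19 higher and 1 lower.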
